A study of Mus musculus with 7 samples.

Results

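The pro-survival genes of the Bcl-2 family were followed in dorsal skin of aged mice after topical ABT-263. The 8 genes were chosen by family membership and by whether ABT-263 (navitoclax) is known to bind the protein. Bcl2, Bcl2l1 and Bcl2l2 encode its targets Bcl-2, Bcl-xL and Bcl-w, whereas Mcl1, the A1 genes (Bcl2a1a, Bcl2a1b and Bcl2a1d) and Bcl2l10 encode members outside its main targets. All 8 were found by symbol among the 55450 genes of the count table, and 7 of them were among the 17959 genes abundant enough to test. The mice were wild type C57BL/6 males aged 24 months, and both groups had dorsal hair removed by clippers and a depilatory lotion, ethanol cleansing and a semi-occlusive dressing. In 3 mice (476, 477 and 478) 5 μM ABT-263 was applied daily over 5 days, and 4 mice (480, 481, 482 and 483) received the vehicle DMSO alone. RNA of whole skin was sequenced in 1 library per mouse. Aged mice without any treatment and young mice were not analysed here, so each difference is between ABT-263 in its vehicle and the vehicle.

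Proteins of the Bcl-2 family decide at the outer mitochondrial membrane whether a cell undergoes intrinsic apoptosis. The pro-survival members hold BH3-only proteins and the pore-forming effectors Bax and Bak in check by binding their BH3 domain in a groove, and ABT-263 is a BH3 mimetic that occupies that groove. Senescent cells often depend on Bcl-2, Bcl-xL or Bcl-w, which is the basis for the use of ABT-263 as a senolytic, while high Mcl-1 or A1 is known to make cells less sensitive to it.

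Total counts per library ranged from 20344364 to 43562330, and each of the ABT-263 libraries was larger than any DMSO library. Levels are given in CPM, counts relative to the TMM-scaled library total, and 1 CPM stood for 19.5 to 46.6 counts depending on the library. ABT-263 and DMSO were compared with the quasi-likelihood test of edgeR, two-sided, with Benjamini-Hochberg adjustment over all genes tested and a threshold of 0.05. At this threshold 24.2% of the genes tested differed, with 12.4% higher and 11.7% lower after ABT-263, and the median log2 fold change of all genes tested was 0.00223. The number of genes passing, 4342, was 1735 without mouse 478, 1824 without 482, 2063 without 483, 2228 without 476 and 2837 without 481, so these shares depend on the mice included. Markers of keratinocytes, fibroblasts, endothelium and skeletal muscle were present in every library. Hair follicle markers varied most, with a summed level of 23.2 to 2207 CPM in DMSO-treated mice (the highest in mouse 481) and of 2.90 to 419.6 CPM in ABT-263-treated mice.

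In DMSO-treated skin Mcl1 was the most abundant of the 8 transcripts. Its mean level per length was 90.6 ± 8.72 CPM per kb of exon (SD, n = 4), against 18.5 ± 2.59 CPM per kb for Bcl2l1, 8.86 ± 0.433 CPM per kb for Bcl2l2 and 3.95 ± 0.536 CPM per kb for Bcl2. These 4 genes did not overlap between neighbours of this order in any DMSO-treated mouse, and Bcl2 lay above the A1 genes without overlap. The A1 genes and Bcl2l10 were scarce. Bcl2a1b was at 0.905 ± 0.484 CPM per kb, Bcl2a1d at 0.649 ± 0.275 CPM per kb, Bcl2a1a at 0.358 ± 0.294 CPM per kb and Bcl2l10 at 0.202 ± 0.233 CPM per kb, and neighbours among these last 4 genes overlapped. Among the targets of ABT-263, the transcript for Bcl-xL thus stood above those for Bcl-w and Bcl-2 per length. The order was the same with the length of the longest transcript in place of all exon bases, although the level of Bcl2l1 was then 33.1 CPM per kb.

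After ABT-263 the order changed at the lower end. Mcl1 (109.6 ± 45.3 CPM per kb, SD, n = 3), Bcl2l1 (16.2 ± 4.02 CPM per kb) and Bcl2l2 (9.20 ± 1.07 CPM per kb) kept the first 3 places. Bcl2 dropped to 1.43 ± 0.387 CPM per kb, with a mean below those of Bcl2a1b (5.40 ± 5.20 CPM per kb), Bcl2a1d (2.31 ± 1.47 CPM per kb) and Bcl2a1a (1.70 ± 1.45 CPM per kb). From Bcl2l2 down to Bcl2, each gene overlapped the next in this order, whereas Bcl2l2 lay wholly above Bcl2a1d, Bcl2a1a and Bcl2. The place of Bcl2 among the A1 genes was not firm. With the length of the longest transcript, its mean (1.82 CPM per kb) lay above that of Bcl2a1a (1.70 CPM per kb). Per kb of exon, Bcl2 was above Bcl2a1d in mouse 477 (1.35 against 1.20) and above Bcl2a1a in mouse 478 (1.08 against 0.341). Bcl2l10 was again the lowest, at 0.136 ± 0.0447 CPM per kb.

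**Figure D1:**
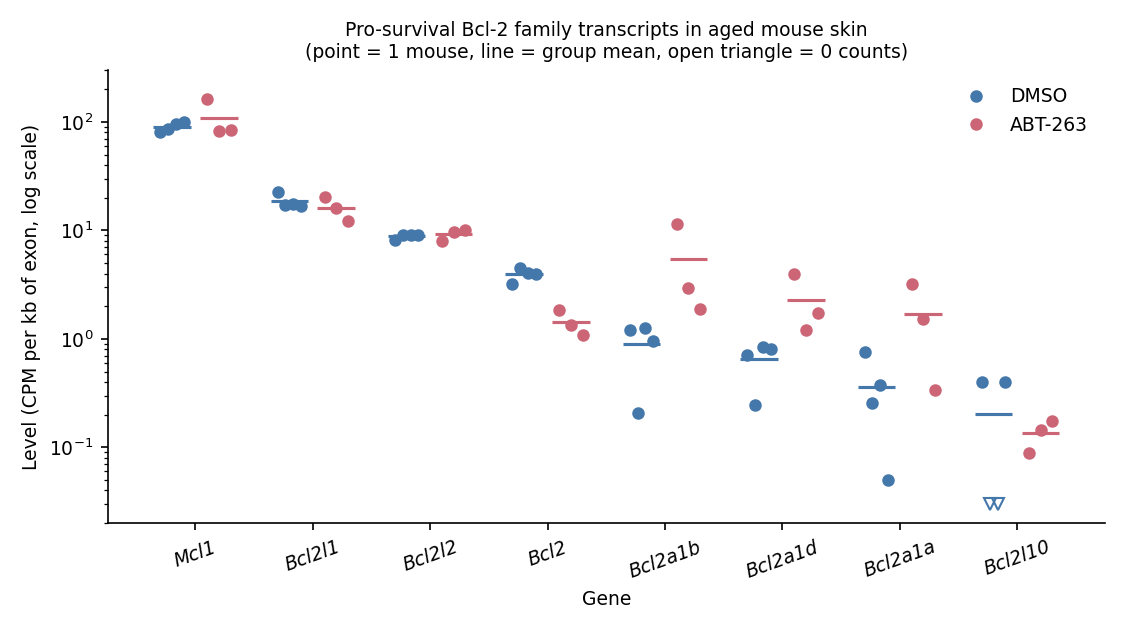
Level of each pro-survival gene in CPM per kb of exon on a log axis, with 1 point per mouse, a line at each group mean and open triangles for libraries with 0 counts. Mcl1 is the highest in both groups, the ABT-263 points of Bcl2 all lie below its DMSO points, and the A1 genes are near or below 1 CPM per kb after DMSO.

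Of the 7 genes tested, 3 passed the threshold, with Bcl2 lower and Bcl2a1b and Bcl2a1d higher after ABT-263, against 24.2% of all genes tested. The same 3 genes were the ones whose groups did not overlap, against 37.1% of all genes tested (18.7% higher and 18.4% lower). With so few members these shares are a description and not a property of the family. Bcl2a1b and Bcl2a1d reached the abundance filter in 3 of the 4 DMSO libraries, whereas Bcl2a1a reached it in 1 DMSO and 2 ABT-263 libraries. In bulk tissue, fewer cells of a type and less RNA per cell cannot be told apart.

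Among the targets of ABT-263, only Bcl2 passed the threshold. Bcl2 lies on chromosome 1 (GRCm38, positions 106538178 to 106714274, minus strand) and has 2 annotated transcripts, the longer with an intron of 168906 bases between its 2 exons. After DMSO it was at 29.6, 41.4, 37.3 and 36.4 CPM in mice 480, 481, 482 and 483, from 723 to 983 counts. After ABT-263 it was at 16.9, 12.4 and 9.92 CPM in mice 476, 477 and 478, from 462 to 490 counts. All 3 ABT-263 values were lower than the lowest DMSO value, and the groups did not overlap. The log2 fold change was -1.47 with a standard error of 0.21 and a 95% interval of -1.95 to -0.99 (edgeR, adjusted p = 0.00673), which places the level after ABT-263 at 0.361 of the DMSO level (interval 0.258 to 0.504). Bcl2 was called in each of the 7 fits that left out 1 mouse (adjusted p between 0.00815 and 0.0304) and in each of 8 other ways of processing.

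The counts of Bcl2 carry 2 limits from its structure. One annotated transcript ends inside the long intron, and 21.5% of the exon bases lie within an intron of the other, where reads of unspliced RNA can be counted. A further 6.09% of the exon bases are shared with an antisense gene, D630008O14Rik, which had at most 1 count in any library, and the counting used the strand. Markers of cell types were measured beside it, among them melanocytes and T cells, in which Bcl-2 is known to be prominent. Of the 7 basal keratinocyte markers, 1 was lower (Krt15, log2 fold change -1.45, edgeR adjusted p = 0.0312) and 1 higher (Itga6, 0.60, edgeR adjusted p = 0.0316). Of the 6 hair follicle markers tested, 0 passed in edgeR, with 1 at an unadjusted p under 0.05 and 1 called with DESeq2. All 6 estimates were below 0, with log2 fold changes of -2.68 to -1.81 and a median of -2.13. Only Lef1 did not overlap between the groups (log2 fold change -2.07, edgeR adjusted p = 0.0557). Melanocyte markers summed to 93.3 to 327 CPM after DMSO and to 23.1 to 64.5 CPM after ABT-263 without overlap, and 1 of the 6 (Dct, log2 fold change -2.44) passed the threshold, lower. Dct made up most of this sum in each DMSO-treated mouse (58.1 to 199 CPM). Only Dct and Pmel did not overlap between the groups, whereas Tyr, Tyrp1, Mlana and Mitf did. The estimate for Mitf went the other way (log2 fold change 0.45). For T cells, the 8 markers summed to 14.4 to 27.2 CPM after DMSO and to 14.3 to 56.1 CPM after ABT-263; none passed in edgeR (0 at an unadjusted p under 0.05 and 1 with DESeq2). The part of these cell types in the change of Bcl2 was not tested.

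The start of Bcl2 is shown because it is the one target whose transcript was called lower at the threshold. The window runs from 250 bases before to 50 bases after the start in RefSeq (chr1:106714241-106714540, minus strand, GRCm38.p6), written 5′ to 3′, and 76.0% of its bases are G or C.
Bcl2: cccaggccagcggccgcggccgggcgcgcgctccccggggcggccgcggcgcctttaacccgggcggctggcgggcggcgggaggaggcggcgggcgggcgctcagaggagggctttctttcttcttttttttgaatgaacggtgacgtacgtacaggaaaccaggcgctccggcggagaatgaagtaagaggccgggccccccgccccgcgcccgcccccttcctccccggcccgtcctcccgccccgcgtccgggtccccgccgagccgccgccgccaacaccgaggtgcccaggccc
Of the motifs searched on both strands, this window held TGACG, the core of a cyclic AMP response element, at -107 from the start, and GAGGAA, a core bound by factors of the Ets family such as PU.1, at -29 on the opposite strand. TGACG is found in 20.8% and GAGGAA in 28.3% of all 32851 promoter windows of this length. A match of letters is a description of the window and does not show a bound site.

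Bcl2l1, which encodes the apoptosis inhibitor Bcl-xL, did not pass the threshold. It lies on chromosome 2 (positions 152780668 to 152831728, minus strand) with 9 annotated transcripts, and a count per gene does not separate its pro-survival long form from the pro-apoptotic short one. The level was 103, 79.5, 80.9 and 77.0 CPM in the DMSO-treated mice and 93.2, 73.1 and 56.4 CPM in the ABT-263-treated mice, in the order of mice given above. The groups overlapped, with the highest value in DMSO-treated mouse 480 and the lowest in ABT-263-treated mouse 478. Its log2 fold change was -0.20 with a standard error of 0.19 (edgeR, adjusted p = 0.478), and the 95% interval of -0.64 to 0.24 leaves room for a level between 0.644 and 1.18 of that after DMSO.

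Bcl2l2, the gene for Bcl-w, did not pass either. Located on chromosome 14 (positions 54883377 to 54888234, plus strand), it was at 36.7, 40.4, 40.8 and 40.3 CPM after DMSO and at 35.6, 42.9 and 44.6 CPM after ABT-263. The ABT-263 values lay on both sides of the DMSO values. The log2 fold change was 0.054 with a standard error of 0.12 and a 95% interval of -0.22 to 0.33 (edgeR, adjusted p = 0.770), so a level outside 0.857 to 1.26 of that after DMSO lay beyond this interval. The sign of this small difference turned without mouse 478 and when trends on gene length and GC content were removed. A readthrough gene on the same strand, Gm20521, shares 13.3% of the exon bases of Bcl2l2 and had at most 6 counts in a library. Pairs on the shared bases may have been counted for neither gene, so this low count does not bound the effect of the overlap.

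Summed per length, the transcripts of the 3 targets were at 31.4 ± 1.73 CPM per kb after DMSO (SD, n = 4) and at 26.8 ± 3.39 CPM per kb after ABT-263 (SD, n = 3). The groups overlapped, with the lowest DMSO value at 29.8 and the highest ABT-263 value at 30.2 CPM per kb, and the difference was not tested. Bcl2 contributed 3.95 and 1.43 CPM per kb to these sums, and Bcl2l1 contributed 18.5 and 16.2 CPM per kb.

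Mcl1 encodes a short-lived pro-survival protein that is needed for the upkeep of many tissues, and its transcript did not pass the threshold. It lies on chromosome 3 (positions 95658788 to 95663176, plus strand) and was at 277, 294, 325 and 343 CPM after DMSO and at 553, 283 and 288 CPM after ABT-263. One library set the mean: mouse 476 was above every DMSO-treated mouse, and mice 477 and 478 lay inside the DMSO range. The log2 fold change was 0.28 with a standard error of 0.25 and a 95% interval of -0.31 to 0.86 (edgeR, adjusted p = 0.451), and without mouse 476 it was -0.11. The direction of Mcl1 therefore rested on that mouse.

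**Figure D2:**
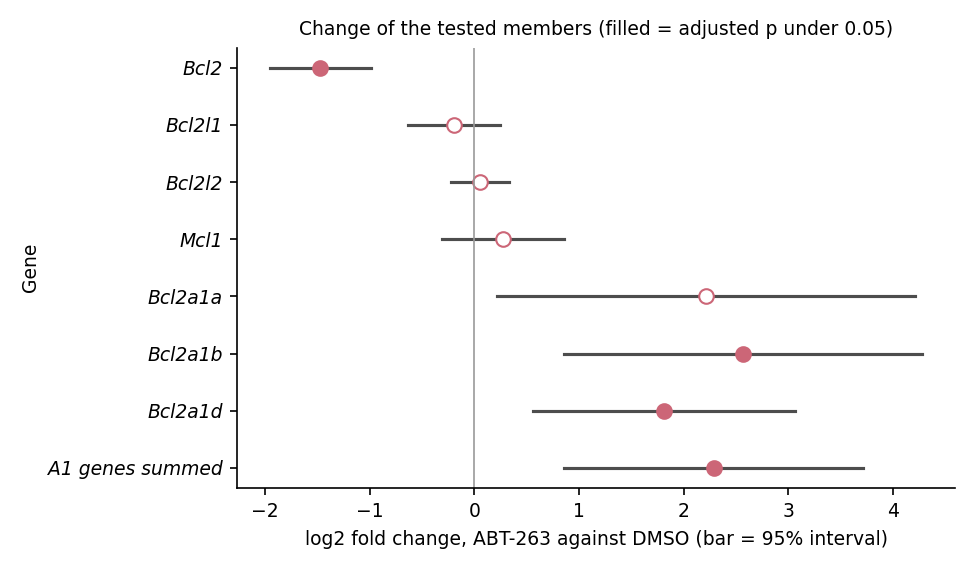
Log2 fold change of the 7 tested genes and of the summed A1 genes after ABT-263 against DMSO, with 95% intervals from edgeR and filled points for an adjusted p under 0.05. The interval of Bcl2 lies wholly below 0, those of Bcl2l1, Bcl2l2 and Mcl1 include 0, and the wide intervals of the A1 genes lie above 0.

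The A1 genes of the mouse are near-identical copies of a gene that NF-kB can induce in leukocytes, and A1 protein is known for keeping activated myeloid cells and lymphocytes alive. All 3 lie on chromosome 9 of GRCm38: Bcl2a1d at positions 88723285 to 88731914 on the minus strand, Bcl2a1a at 88956900 to 88962419 on the plus strand and Bcl2a1b at 89199209 to 89207827 on the plus strand. Their 516 coding bases are 97.9% identical between Bcl2a1a and Bcl2a1b (11 differences), 98.6% between Bcl2a1a and Bcl2a1d (7 differences) and 98.8% between Bcl2a1b and Bcl2a1d (6 differences). The first 120 coding bases are shown because 7 of the differing positions, the bases by which a read can be told apart, fall within them. Capitals mark the positions at which the copies differ. The stretches come from the GENCODE M21 transcripts and lie in exon sequence of GRCm38 at chr9:88957051-88957170 (plus strand) for Bcl2a1a, chr9:89199360-89199479 (plus strand) for Bcl2a1b and chr9:88731600-88731719 (minus strand) for Bcl2a1d.
Bcl2a1a: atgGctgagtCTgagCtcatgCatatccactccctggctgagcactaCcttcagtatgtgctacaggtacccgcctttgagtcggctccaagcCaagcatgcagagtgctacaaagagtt
Bcl2a1b: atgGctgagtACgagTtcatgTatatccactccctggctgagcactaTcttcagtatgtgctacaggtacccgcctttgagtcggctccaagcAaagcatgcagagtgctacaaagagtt
Bcl2a1d: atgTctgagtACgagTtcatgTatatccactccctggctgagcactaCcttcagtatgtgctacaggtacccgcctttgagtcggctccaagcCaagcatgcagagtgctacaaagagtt
Only uniquely aligned read pairs were counted. Of the windows of 50 bases along each transcript, 31.0% of those of Bcl2a1a, 42.4% of those of Bcl2a1b and 20.5% of those of Bcl2a1d occur in no other copy, and for windows of 150 bases these shares are 71.8%, 85.8% and 69.7%. The length of the reads is not given in the sources used here. The split of reads among the 3 genes is therefore uncertain, and pairs that fit more than 1 copy are missing from all of them.

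Bcl2a1b and Bcl2a1d rose after ABT-263. Bcl2a1b was at 0.982, 0.169, 1.03 and 0.781 CPM after DMSO (24, 4, 20 and 19 counts) and at 9.30, 2.39 and 1.55 CPM after ABT-263 (260, 95 and 72 counts). The ABT-263 values were all above the DMSO values, with mouse 476 far above the others. The log2 fold change was 2.57 with a standard error of 0.74 and a 95% interval of 0.85 to 4.28 (edgeR, adjusted p = 0.0410). Bcl2a1d was at 0.614, 0.211, 0.719 and 0.698 CPM after DMSO (15, 5, 14 and 17 counts) and at 3.43, 1.03 and 1.5 CPM after ABT-263 (96, 41 and 70 counts). Its groups did not overlap either, and the log2 fold change was 1.82 with a standard error of 0.55 and a 95% interval of 0.56 to 3.07 (edgeR, adjusted p = 0.0447). Bcl2a1a did not pass, with 0.614, 0.211, 0.308 and 0.0411 CPM after DMSO (15, 5, 6 and 1 counts) and 2.65, 1.26 and 0.279 CPM after ABT-263 (74, 50 and 13 counts). Mouse 478 lay inside the DMSO range, and the log2 fold change was 2.21 with a standard error of 0.87 and a 95% interval of 0.22 to 4.21 (edgeR, adjusted p = 0.0964; DESeq2, adjusted p = 0.0398).

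Because reads may be shared out among the copies, the A1 genes were also added into 1 feature together with Bcl2a1c, which had 1 count in all libraries together. The sum was 2.21, 0.590, 2.05 and 1.52 CPM after DMSO and 15.4, 4.69 and 3.33 CPM after ABT-263. Every ABT-263-treated mouse lay above the DMSO range, from a group mean of 1.59 ± 0.731 CPM (SD, n = 4) to one of 7.81 ± 6.62 CPM (SD, n = 3). The log2 fold change was 2.29 with a standard error of 0.62 and a 95% interval of 0.86 to 3.71 (edgeR, adjusted p = 0.0340). Mouse 476 carried much of the size: the ratio of the mean CPM was 4.90 with it and 2.52 without it.

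The calls of the A1 genes were near the threshold. Bcl2a1b passed in 2 of the 7 fits that left out 1 mouse and was lost without mouse 476 (log2 fold change 1.42, edgeR adjusted p = 0.156) and without DMSO-treated mouse 480, 481, 482 or 483 (2.74, 2.23, 2.75 and 2.60). Bcl2a1d passed in 1 of 7, without mouse 477, and was at 1.18 without 476, 1.99 without 478, and 1.86, 1.54, 1.95 and 1.94 without 480, 481, 482 and 483. The sum passed in 3 of 7 and was lost without 476 (1.34, edgeR adjusted p = 0.104), 481 (2.01), 482 (2.43) and 483 (2.26). All these values were above 0. In Bcl2a1b, 49.1% of the exon bases are shared with a gene of the same strand, Gm29094, which had 3 counts in mouse 476 and 0 in the other libraries. Pairs on the shared bases may have been counted for neither gene. The low counts of Gm29094 therefore do not bound the effect of this overlap on the level of Bcl2a1b.

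Summed markers of neutrophils and of macrophages were higher after ABT-263, and those of mast cells and lymphocytes overlapped between the groups. The 6 mast cell markers summed to 55.9 to 160 CPM after DMSO and to 80.1 to 223 CPM after ABT-263, and 0 of the 6 passed in edgeR. The 9 neutrophil markers summed to 149 to 1859 CPM after DMSO and to 5135 to 8486 CPM after ABT-263, and 3 of the 7 tested rose (S100a8, Retnlg and Csf3r, the receptor for granulocyte colony-stimulating factor). S100a8 and S100a9, which keratinocytes also express under stress, made up 65.5% to 99% of this sum, and S100a9 did not pass (log2 fold change 2.56, edgeR adjusted p = 0.0772). Without these 2 genes, a choice made after seeing the data, the other 7 markers summed to 55.5, 51.4, 48.2 and 56.7 CPM after DMSO and to 558, 65.8 and 57.3 CPM after ABT-263. Mice 477 and 478 were then close to the DMSO range and mouse 476 far above it. Most of this sum in each DMSO-treated mouse was Il1r2, which did not pass. It was at 36.7 to 48.3 CPM after DMSO and at 94.1, 36.7 and 27.9 CPM after ABT-263. Csf3r was at 1.35 to 3.72 CPM after DMSO and at 78.0, 12.4 and 10.7 CPM after ABT-263. Csf3r, Cxcr2 and Retnlg did not overlap between the groups, whereas Il1r2, Mmp8, Ly6g and Ngp did. Ly6g and Ngp, which mark neutrophils more strictly, were at or near 0 in the DMSO libraries (up to 0.253 CPM for Ly6g and 0.123 CPM for Ngp) and at 14 and 14.7 CPM in mouse 476, but at 0.172 CPM or less in mice 477 and 478. The 8 macrophage markers summed to 364 to 962 CPM after DMSO and to 1110 to 3330 CPM after ABT-263, and 6 of the 8 rose. Mouse 476 was the highest and DMSO-treated mouse 481 the lowest of all 7 in the macrophage sum and the A1 sum. Over the 7 neutrophil markers other than S100a8 and S100a9, mouse 476 was the highest and mouse 482 the lowest, in a sum weighted by Il1r2. Taken singly, Csf3r, Cxcr2, Retnlg and Mmp8 were each lowest in mouse 481, whereas Il1r2 was lowest in mouse 478. Ly6g and Ngp were too near 0 outside mouse 476 to be ordered. The T cell markers, given above, were lowest of all in mouse 478. Of the 5 B cell markers 2 were abundant enough to test, and the list summed to 1.52 to 4.07 CPM after DMSO and 2.00 to 5.40 CPM after ABT-263. The part of myeloid cell number in the rise of the A1 genes was not tested.

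**Figure D3:**
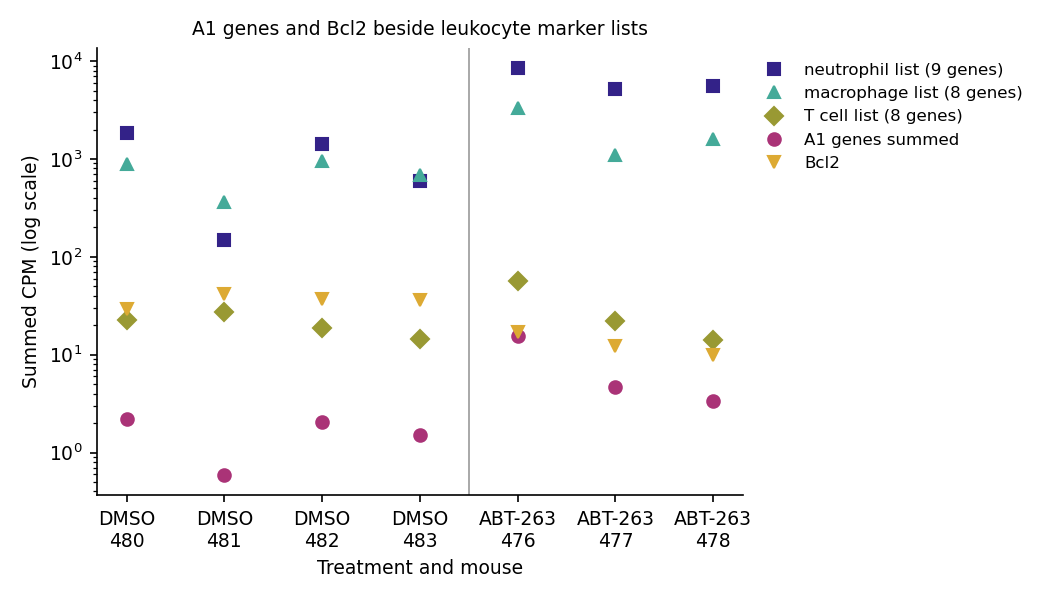
Summed CPM on a log axis in each mouse for the A1 genes, for Bcl2 and for marker lists of leukocytes, with DMSO-treated mice left and ABT-263-treated mice right of the vertical line. The A1 sum is lowest in mouse 481 (0.590 CPM) and highest in mouse 476 (15.4 CPM), as is the macrophage sum, the neutrophil sum is mostly S100a8 and S100a9, and Bcl2 is lower in all 3 ABT-263-treated mice.

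The promoter windows of the A1 copies are shown because 2 of the 3 genes rose and their sum passed the threshold. They are RefSeq windows of GRCm38.p6, from 250 bases before to 50 bases after the annotated start, 5′ to 3′, with capitals at the positions, within the stretch that all 3 windows share, at which the copies do not all carry the same base. They cover chr9:88956670-88956969 (plus strand), chr9:89199023-89199322 (plus strand) and chr9:88731801-88732100 (minus strand).
Bcl2a1a: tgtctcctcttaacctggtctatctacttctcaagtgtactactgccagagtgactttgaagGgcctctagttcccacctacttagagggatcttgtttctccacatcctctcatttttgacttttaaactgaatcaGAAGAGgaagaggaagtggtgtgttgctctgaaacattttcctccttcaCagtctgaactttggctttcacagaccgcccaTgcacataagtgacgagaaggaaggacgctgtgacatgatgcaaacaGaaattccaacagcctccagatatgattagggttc
Bcl2a1b: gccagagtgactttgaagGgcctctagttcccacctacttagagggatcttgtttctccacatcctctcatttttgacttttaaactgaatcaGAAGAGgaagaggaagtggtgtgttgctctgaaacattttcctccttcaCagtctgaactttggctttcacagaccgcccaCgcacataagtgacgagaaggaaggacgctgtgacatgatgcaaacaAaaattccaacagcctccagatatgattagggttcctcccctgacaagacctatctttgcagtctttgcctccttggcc
Bcl2a1d: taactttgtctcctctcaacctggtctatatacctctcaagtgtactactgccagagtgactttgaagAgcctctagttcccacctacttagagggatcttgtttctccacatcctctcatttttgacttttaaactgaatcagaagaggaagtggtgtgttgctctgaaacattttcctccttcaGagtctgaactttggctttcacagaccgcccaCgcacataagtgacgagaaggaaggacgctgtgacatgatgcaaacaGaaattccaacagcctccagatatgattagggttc
Identity in the aligned part was 99.2% between Bcl2a1a and Bcl2a1b, 96.0% between Bcl2a1a and Bcl2a1d and 96.5% between Bcl2a1b and Bcl2a1d. All 3 windows held TGANTCA, a form of the site for AP-1 (the Fos and Jun factors), at -120, -164 and -114 from the annotated start of Bcl2a1a, Bcl2a1b and Bcl2a1d, and 7.81% of all promoter windows hold it. GAGGAA occurred 3 times in Bcl2a1a, 4 times in Bcl2a1b and 2 times in Bcl2a1d on either strand, and TGACG 1 time in each. The NF-kB consensus was in none of the 3 windows (8.46% of all windows hold it), nor were TATAAA (13.6%) and TTCNNNGAA (8.30%). The windows of Bcl2a1a and Bcl2a1d also held CANNTG, as do 72.3% of all windows, and TGACGTCA (1.79%), which contains TGACG, was in none of the family's windows. Of the 8 genes, 7 had a window in the reference table.

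Bcl2l10, known mainly from the ovary and oocyte, was at the limit of detection. It lies on chromosome 9 (positions 75347758 to 75351632, plus strand) and had 12, 0, 0 and 12 counts after DMSO and 3, 7 and 10 counts after ABT-263, or 0.491, 0, 0 and 0.493 CPM against 0.107, 0.176 and 0.215 CPM. A count of 0 allows a level of up to 0.126 CPM in mouse 481 and 0.154 CPM in mouse 482, counting error only. The ABT-263 values lay between the DMSO values, and the gene did not reach the abundance filter. Without the filter, its log2 fold change was -0.53 (edgeR, adjusted p = 0.782).

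The make-up of the family was then compared within each mouse as a share of the summed level per kb of the 8 genes. Mcl1 made up 68.7% to 75.8% of it after DMSO and 71.6% to 76.8% after ABT-263. The 3 targets together made up 28.7%, 26.3%, 24.1% and 22.5% in the DMSO-treated mice and 14.3%, 23.3% and 20.9% in the ABT-263-treated mice. Mouse 477 lay inside the DMSO range, so this share overlapped between the groups (means 25.4% ± 2.7 and 19.5% ± 4.66, SD). Bcl2 alone went from 2.74% to 3.84% after DMSO to 0.876% to 1.17% after ABT-263, and the A1 genes from 0.601% to 2.26% to 3.56% to 8.82%, both without overlap.

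**Figure D4:**
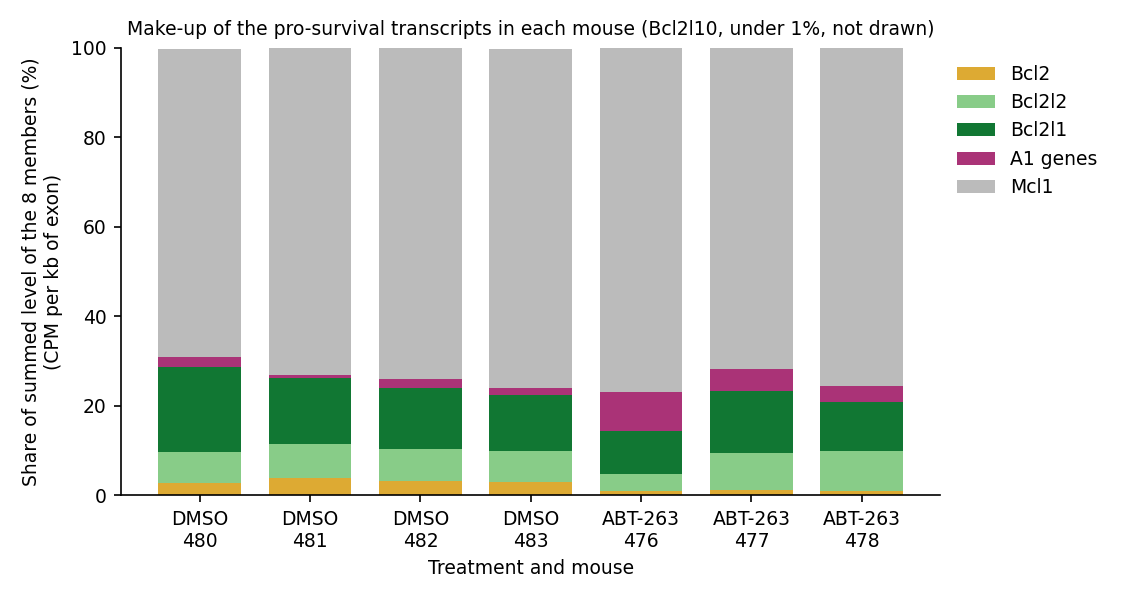
Stacked bars of the share, in percent, that each pro-survival gene had in the summed CPM per kb of the 8 genes in each mouse (Bcl2l10, under 1%, not drawn). Mcl1 fills 68.7% to 76.8% of every bar, the part of Bcl2 is thinner and that of the A1 genes thicker in the 3 ABT-263-treated mice.

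Ratios of 2 genes within a library do not depend on how libraries are scaled, and 6 of them were compared over the 7 mice with an exact permutation test, two-sided, adjusted over the 6. With 4 mice against 3 this test cannot give a p below 0.0286. The log2 ratio of the counts of Bcl2 to Mcl1 was -3.22, -2.83, -3.12 and -3.23 after DMSO and -5.03, -4.51 and -4.86 after ABT-263. The groups did not overlap, and the mean difference was -1.70 (exact permutation p = 0.0286, adjusted p = 0.0857). The ratio of Bcl2 to Bcl2l2 was lower by a similar size, -1.54, also without overlap (exact permutation p = 0.0286, adjusted p = 0.0857). Bcl2 to Bcl2l1 was at -1.79, -0.94, -1.12 and -1.08 after DMSO and at -2.46, -2.56 and -2.51 after ABT-263. This difference of -1.28 did not overlap either, although DMSO-treated mouse 480 stood apart and the exact permutation p was 0.0571 (adjusted p = 0.114). None of the 6 ratios passed a threshold of 0.05 after adjustment, and 2 had an unadjusted p below it. Even with every ratio that holds Bcl2 at the smallest possible p, these alone could not have passed after adjustment. The adjusted values therefore cannot decide whether the ratios of Bcl2 differ.

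The ratios that leave out Bcl2 overlapped between groups. Bcl2l1 to Mcl1 differed by -0.42 (exact permutation p = 0.171, adjusted p = 0.257), Bcl2l1 to Bcl2l2 by -0.26 (p = 0.371, adjusted p = 0.446 in the same exact test) and Bcl2l2 to Mcl1 by -0.16 (p = 0.914, adjusted p = 0.914 in the same exact test). The last was 0.26 without mouse 476, in which Mcl1 was high.

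**Figure D5:**
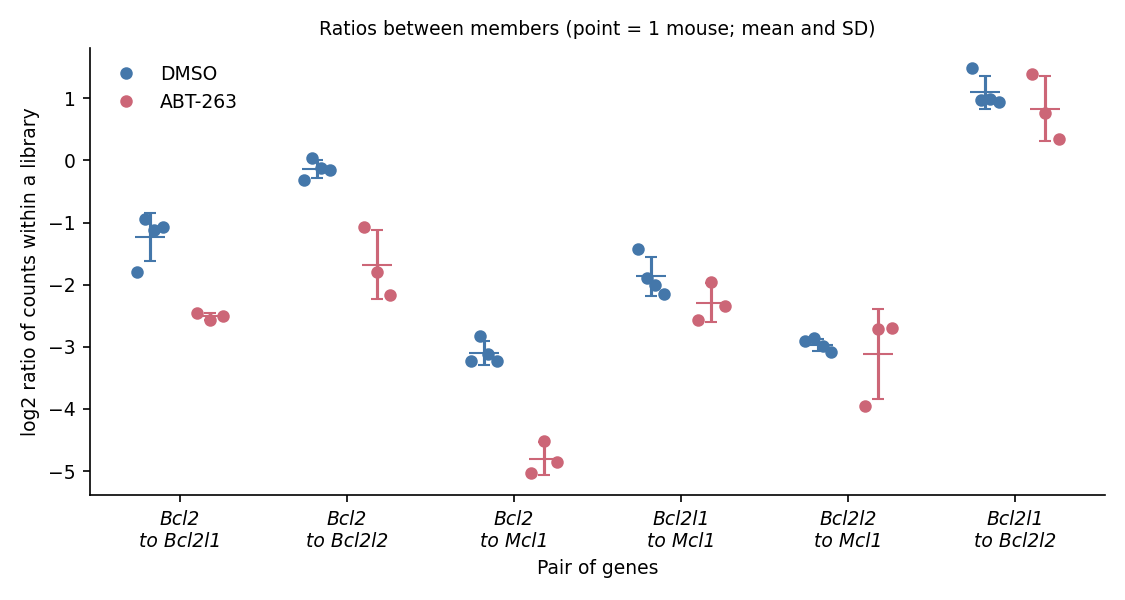
Log2 ratio of the counts of 2 genes within each library for 6 pairs, with 1 point per mouse and the mean and SD of each group. In the 3 pairs that begin with Bcl2 the ABT-263 points all lie below the DMSO points, and in the other 3 pairs the groups overlap.

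Of the other genes of the intrinsic pathway, 44 were listed, 40 were tested, and 8 were higher and 5 lower after ABT-263, with a median log2 fold change of 0.19 against 0.00223 over all genes tested. The share called is to be read against 24.2% of all genes tested. Leaving out 1 mouse gave between 7 (without DMSO-treated mouse 482) and 14 calls, and 8 without ABT-263-treated mouse 476 or 478.

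BH3-only proteins are the natural ligands of the groove that ABT-263 fills, and 2 of the 7 genes tested rose. Bmf went from 6.07 ± 1.45 to 17.3 ± 6.55 CPM (SD, n = 4 and 3), a log2 fold change of 1.51 (standard error 0.29, edgeR adjusted p = 0.0129). Bid, which links death receptors to mitochondria, went from 3.65 ± 0.752 to 8.30 ± 3.30 CPM, a log2 fold change of 1.18 (edgeR adjusted p = 0.0273). Bad, whose BH3 domain binds the same partners as ABT-263, was the highest of the list per length after DMSO (21.5 CPM per kb) and had a log2 fold change of -0.13 (edgeR adjusted p = 0.596). Without mouse 476, 478, 481, 482 or 483 only 1 gene of this list passed. The effectors that form the mitochondrial pore, Bax, Bak1 and Bok, had log2 fold changes of 0.052, 0.51 and 0.16, and 0 of the 3 passed in edgeR, with 0 at an unadjusted p under 0.05 and 0 with DESeq2. Bax was the highest of them per length, at 31.0 CPM per kb after DMSO.

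Further homologues of the family, whose place in apoptosis is less settled, all passed, with 2 higher and 2 lower of 4 tested. Bcl2l13, a mitochondrial receptor for mitophagy, had a log2 fold change of 0.59 (edgeR adjusted p = 0.0356) and Bcl2l15 one of 2.00 (edgeR adjusted p = 0.0226). Bcl2l12 fell from 26.8 ± 3.47 to 13.1 ± 2.30 CPM, a log2 fold change of -1.04 (edgeR adjusted p = 0.00899), and Bcl2l14 had one of -1.02 (edgeR adjusted p = 0.0431). Only 1 or 2 of the 4 passed in each fit that left out 1 mouse, from 1 without DMSO-treated mouse 482 to 2 in the other 6 fits.

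Among genes of mitochondrial release and the apoptosome, 10 were tested, with a median log2 fold change of 0.25. Diablo, whose protein counters the inhibitors of apoptosis, fell from 27.9 ± 3.86 to 13.7 ± 2.26 CPM (SD, n = 4 and 3), a log2 fold change of -1.02 (edgeR adjusted p = 0.0091), and was the one gene of the list that was lower past the threshold. Vdac1, a channel of the outer membrane, was the most abundant of the list per length after DMSO (252 CPM per kb) and had a log2 fold change of -0.41 (edgeR adjusted p = 0.131).

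Mcl-1 is controlled largely through its breakdown, and 3 of 7 genes tested for its turnover passed. Fbxw7, part of a ubiquitin ligase for Mcl-1, fell from 90.3 ± 5.57 to 37.2 ± 8.18 CPM (SD, n = 4 and 3), a log2 fold change of -1.28 (standard error 0.16, edgeR adjusted p = 0.00623). Usp9x, which removes ubiquitin from Mcl-1, had a log2 fold change of 1.61 (edgeR adjusted p = 0.0154), and the co-chaperone Bag3, the most abundant of the list per length, one of -0.45 (edgeR adjusted p = 0.0485). These are transcripts, and Mcl-1 protein was not analysed here. Of the 7 turnover genes, 4 passed without DMSO-treated mouse 480 and 2 without any other single mouse. Among regulators of transcription known for Bcl2 or the A1 genes, 1 of 9 tested passed: Nfkb1 was higher (log2 fold change 0.82, edgeR adjusted p = 0.0124), whereas Rela, its partner in NF-kB and the most abundant of this list per length, had a log2 fold change of -0.0023 (edgeR adjusted p = 0.992). With mouse 477 left out 3 genes of this list passed, and 2 passed with DESeq2.

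Genes with the most similar pattern over the 7 mice were picked by the root mean square difference of log2 CPM, each gene centred on its DMSO mean, among 13674 protein-coding genes with a mean of at least 1 CPM. For Bcl2 these were Pcdhgc5 (0.138), Mphosph8 (0.174) and Celf4 (0.176). For Bcl2l1 they were Timm10b (0.0563), Tnfrsf18 (0.0617) and Sertad1 (0.0705), for Bcl2l2 Arhgef18 (0.0326), Ube3c (0.0489) and Cops7a (0.0512), and for Mcl1 Cd47 (0.0911), Ogfr (0.0997) and P4ha1 (0.103). The neighbours of the A1 copies were Lcp2 (0.208), Tlr2 (0.299) and Clec5a (0.343) for Bcl2a1b and Ptafr (0.180), Arl11 (0.185) and Aldh3b1 (0.187) for Bcl2a1d. For Bcl2a1a they were Nfkbid (0.510), Kmo (0.521) and Tnfrsf26 (0.543). No gene stood in the neighbourhood of more than 1 copy. The measure is a description over 7 mice, with no test, and both genes of a pair are measured in the same libraries and the same groups.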

How the data were processed

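RNA of dorsal skin from 4 DMSO-treated and 3 ABT-263-treated mice was sequenced in bulk, and groups were taken from the labels. The authors mapped reads to mm10 by STAR 2.7.9a. The deposited counts, per gene and raw, come from featureCounts (Subread 1.6.2), with strand taken into account, multi-mapping and improper pairs dropped, and genes of the mitochondrial genome removed. A second deposited table holds variance-stabilized values on a log2 scale, made by the authors with DESeq2 1.23.10, and served only as an alternative. Reads that fit several genes, such as the A1 copies, were not counted, and the table's depth (20344364 to 43562330 counts per library) left the A1 genes with 1 to 260 counts.

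Counts were analyzed in R 4.3.3 with edgeR 4.0.16 (TMM, filterByExpr, robust quasi-likelihood test). DESeq2 1.42.0 and limma 3.58.1 served as alternatives, and the tests were checked on simulated data. Other alternatives were DESeq2's size factors, no filter, at least 10 counts in every library, protein-coding genes only, offsets from mgcv 1.9.3 for each gene's GC share and length, counts thinned to the smallest library, and each mouse left out. Ratios had 0.5 added to each count. Nothing in the labels says more of the mice than that they are separate animals, and no batch is named. Names, exons and positions came from GENCODE M21 (GRCm38), not the Ensembl build the authors used, and held 55190 of the 55450 identifiers. Promoters came from RefSeq, and A1 copies were aligned with MAFFT 7.526. Named genes are the 8 members, genes past the threshold (at most 4) and the highest per length in each pathway list, the 3 nearest in pattern to each member, and markers that moved with a result. The members, lists and tests were chosen with earlier results of these data known. The p-values cover the spread between these mice. Some results of single pathway genes are not reported here, and other assays of the study were not used here.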

Additional observations from a re-analysis of the deposited data

Results flagged for a closer look

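In 15 measures of the 8 genes, their A1 sum and the 6 ratios, the 4 DMSO-treated mice were searched for a mouse whose gap to its nearest neighbour, as a share of the whole range, exceeded Dixon's 95% critical value for 4 samples. Chance gives about 1 in 20, or 0.75 of 15, and 3 exceeded it, each through DMSO-treated mouse 480. Bcl2l1 was highest in this mouse (103 CPM, gap 0.847 of the range), Bcl2l2 lowest (36.7 CPM, gap 0.888), and the log2 ratio of Bcl2l1 to Bcl2l2 accordingly highest (1.49, gap 0.901). The 3 measures share 2 genes and are not independent. Without mouse 480 neither gene passed the threshold in edgeR, as with it.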

How the results depend on the processing

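Leaving out 1 mouse at a time, the number of genes changed was 1735 to 4169, and the calls among the pathway genes 7 to 14. Log2 fold changes spanned -1.69 to -1.30 for Bcl2, -0.39 to -0.0269 for Bcl2l1, -0.00356 to 0.15 for Bcl2l2, -0.11 to 0.48 for Mcl1, 1.38 to 2.72 for Bcl2a1a (6 fits), 1.42 to 2.98 for Bcl2a1b, 1.18 to 2.16 for Bcl2a1d and 1.34 to 2.66 for the A1 sum, and the difference of Bcl2l10 -0.162 to 0.00249 CPM. The sign turned for Mcl1 without mouse 476 (-0.11), for Bcl2l2 without mouse 478 (-0.00356) and with trends on length and GC content removed (-0.0751), for Bcl2l10 without mouse 480 (0.00185 CPM) or 483 (0.00249 CPM), and for the ratio of Bcl2l2 to Mcl1 without mouse 476 (range -0.37 to 0.26). None of these was past the threshold, and Bcl2l10 was not tested. Ratios of Bcl2 kept their sign throughout (-1.46 to -1.18 to Bcl2l1, -1.84 to -1.30 to Bcl2l2 and -1.84 to -1.58 to Mcl1).

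Calls of the A1 genes depended on the processing. Bcl2a1a passed with DESeq2 (2.26) and as part of the sum (2.29). Bcl2a1b was lost with no filter (2.59, adjusted p = 0.0676) and with limma on the variance-stabilized values (1.59), Bcl2a1d with protein-coding genes only (1.78) and with limma (1.05), and the sum with no filter (2.31, adjusted p = 0.0564). With at least 10 counts in every library, none of the 3 A1 genes was tested, and their sum passed (2.29). The cause of the lost calls was not tested. The number of genes changed was 3247 to 5985 over 8 other ways of processing. No paired analysis was possible because the mouse numbers of the labels differ between the groups. At these depths 3 counts stood for 0.0644 to 0.154 CPM, which limits Bcl2l10 and the A1 genes.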
